A study of Mus musculus with 6 samples.

Results

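A set of 10 genes of hepcidin and iron handling were followed in mouse liver RNA sequencing: the hepcidin genes Hamp and Hamp2, the inputs Bmp6, Hfe and Tfr2, the uptake genes Tfrc and Trf, the ferritin genes Fth1 and Ftl1, and the iron exporter gene Slc40a1. They were chosen by name as the rows of the gene count table for hepcidin, its inputs, ferritin and ferroportin. All 10 of 10 were found among 55367 gene names, and all 10 were among the 18703 genes with enough counts to be tested. The groups were 3 libraries of whole liver from Lmln-/- mice (Lmln-KO) and 3 from wild-type mice (WT), all C57BL/6J. The mice were 46 weeks old, except the mouse of Lmln-KO replicate 3, at 39 weeks. Lmln encodes the metalloprotease invadolysin. The labels name neither the disrupting allele nor the sex of the mice, and p-values measure the spread between libraries that are numbered as replicates without stated animals.

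Hepcidin is a peptide hormone that hepatocytes release when body iron or inflammation is high. It binds ferroportin, the only known cellular iron exporter, and causes its degradation, so iron stays inside macrophages, gut cells and hepatocytes. Hepcidin transcription in the liver is driven by BMP6 from sinusoidal endothelial cells acting through SMAD proteins, with HFE and transferrin receptor 2 on the hepatocyte as further inputs, and by interleukin-6 acting through STAT3. Ferritin, ferroportin and transferrin receptor 1 are controlled mainly after transcription, by iron regulatory proteins that bind a hairpin in their mRNAs, the iron-responsive element.

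The promoters of Hamp and Hamp2 are shown because these genes, which are near copies, had different patterns over the libraries. The stretches are the 150 bases before the RefSeq start of each gene (GRCm38.p6, minus strand): chr7:30944030-30944179 for Hamp and chr7:30924182-30924331 for Hamp2. Capitals mark GGCGCC, the core of the BMP response element, with its aligned bases in Hamp2, and TTCTTGGAA, a STAT3 site.
Hamp: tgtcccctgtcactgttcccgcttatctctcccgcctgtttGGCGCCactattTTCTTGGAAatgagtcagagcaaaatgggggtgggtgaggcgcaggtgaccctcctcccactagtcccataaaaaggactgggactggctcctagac
Hamp2: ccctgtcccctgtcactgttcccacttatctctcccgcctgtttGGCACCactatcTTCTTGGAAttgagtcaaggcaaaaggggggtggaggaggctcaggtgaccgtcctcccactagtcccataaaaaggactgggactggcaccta

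Over 250 bases before each start, 227 of 253 aligned positions were identical (89.7%), with 20 mismatches and 6 gap positions. GGCGCC began at position -109 in Hamp. Its aligned bases in Hamp2, at position -106, carried the substitution G4A, counted from 1 at the first base of the motif. TTCTTGGAA had 0 substitutions and began at -97 in Hamp and -94 in Hamp2. Both motifs were searched on both strands in 32851 RefSeq promoters of 300 bases, where GGCGCC was found in 11.9% and TTCTTGGAA in 0.417%. Promoters of 8 of the 10 genes were in that table, and among the others only 1 of 2 promoters of Tfrc held GGCGCC. A match of letters is a description and not evidence of binding. The Hamp2 gene of the count table extends further upstream, to 30924681, so the Hamp2 stretch lies within the span of that gene.

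The iron-responsive elements of 4 of the genes are shown because iron regulatory proteins are known to bind such hairpins in their mRNAs. They were found in GENCODE vM21 transcripts (GRCm38) as an unpaired C, 5 paired bases, the loop CAGTGN and 5 paired bases. Each line shows the hairpin with flanks, 27 bases long, with the loop in capitals.
Fth1: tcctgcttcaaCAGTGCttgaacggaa
Ftl1: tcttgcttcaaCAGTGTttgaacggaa
Slc40a1: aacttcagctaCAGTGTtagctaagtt
Tfrc, the first: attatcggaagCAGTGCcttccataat
Tfrc, the second: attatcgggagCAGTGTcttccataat
Tfrc, the third: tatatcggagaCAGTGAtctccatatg
Tfrc, the fourth: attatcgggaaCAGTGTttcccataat

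The hairpins of Fth1 (chr19:9982738-9982754), Ftl1 (chr7:45459785-45459801) and Slc40a1 (chr1:45925471-45925487) lay in the 5′ UTR, where binding is known to block translation. The 4 hairpins found in Tfrc lay in the 3′ UTR, from chr16:32631225-32631241 to chr16:32631716-32631732, where binding is known to stabilise the mRNA. The pattern was found in 175 of 21406 genes with an annotated UTR (0.818%), in the 5′ UTR of 31 and the 3′ UTR of 144. A match is a description and not evidence of binding, and the pattern can miss elements that depart from it. Since mRNA was counted, control at the level of translation could not be seen in these data.

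The count table held 17388360 to 22494696 counts per library, with all Lmln-KO libraries above all WT libraries. Raw counts of Lmln itself were 2 to 12 in the Lmln-KO libraries and 39 to 80 in the WT libraries. Xist stood at 1878 to 1947 CPM (counts scaled to library depth, with TMM factors) in Lmln-KO replicate 3 and WT replicates 2 and 3, and Y-linked transcripts summed to 216 to 235 CPM in the other 3. These transcripts thus differ between the libraries of both genotypes, and the fold changes of the 10 genes, the list medians and the ratios are given also from a fit with a term for them (the sex-marker term) or within each of the 2 sets, called here the Xist set and the Y-linked set. The sets are not groups of the study. Within the Xist libraries the only Lmln-KO library is the 39-week one, so age and genotype cannot be told apart there. Within the Y-linked libraries the only WT library is WT replicate 1. Every difference within a set thus rests on a single library for one of the genotypes. Hepatocyte markers were abundant in every library, with 0 of 8 at 0. They summed to 80808, 91404 and 93635 CPM in Lmln-KO replicates 1, 2 and 3 and 105217, 94602 and 111767 CPM in WT replicates 1, 2 and 3. Every Lmln-KO sum was thus below every WT sum, and most of each sum was Alb. Log2 fold changes (Lmln-KO minus WT) were negative for 6 and positive for 2 of the markers, with a median of -0.10. The part of this in the values of the 10 genes was not tested.

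None of the 10 iron genes differed between Lmln-KO and WT past the threshold. At an adjusted p of 0.05 (edgeR's quasi-likelihood test, Benjamini-Hochberg over all tested genes), 0 of 10 were called, against 0% of all genes, and DESeq2 also called 0 of 10, against 0.128% of all genes. The edgeR fit did not call Lmln either, which was among the tested genes, so the lack of a call does not show the lack of a difference. The hepcidin genes spread most over the libraries. Bmp6 was lower in every Lmln-KO library than in every WT library. It was the 1 gene of 10 without overlap, near the 10.3% of all tested genes without overlap in either direction (5.73% lower). Tfrc had a positive difference that was seen in the Xist set and was near 0 in the Y-linked set. The other 6 had differences within 0.14 of 0 on the log2 scale. Log2 fold changes (Lmln-KO minus WT) were positive for 5 and negative for 5 of the genes, with a median of -0.01, against -0.00 over all tested genes. At an unadjusted p under 0.05, 1 of 10 was lower (Bmp6), against 3.14% of all genes, and 0 were higher, against 1.52% (4.66% in either direction). With the sex-marker term, 0 of 10 were called by edgeR, against 0.00535% of all genes, and 0 by DESeq2, against 0.166%.

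**Figure D1:**
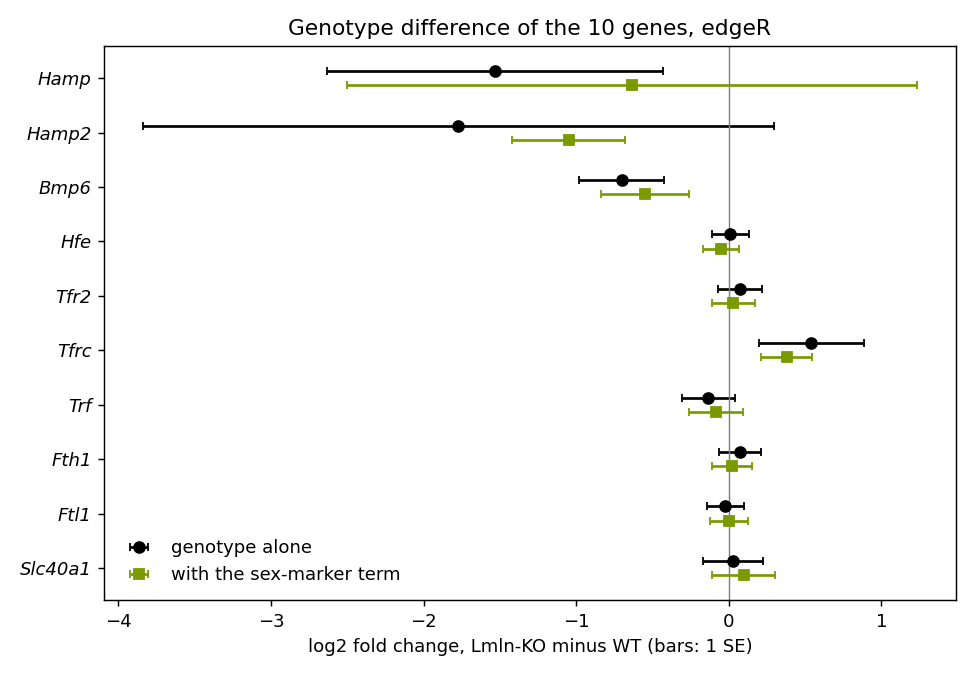
Log2 fold change of each of the 10 genes, Lmln-KO minus WT, from edgeR on genotype alone (circles) and with the sex-marker term (squares), with bars of 1 SE and n = 3 libraries per group. The bars of Hamp and Hamp2 on genotype alone (SE 1.10 and 2.07) are many times wider than those of Hfe, Tfr2, Fth1 or Ftl1.

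Per kilobase of exon, Trf stood first and Bmp6 last. The length used is that of all annotated exons of a gene together, 3469 bases for Fth1 and 9000 for Slc40a1. It can exceed the length of the mRNA, so levels of different genes compare only roughly. Means over the 6 libraries were 4416 ± 364 CPM per kilobase for Trf, 617 ± 771 for Hamp, 186 ± 15.5 for Fth1, 113 ± 12.3 for Tfr2 and 101 ± 8.39 for Ftl1 (SD, n = 6). They were 77.4 ± 91.5 for Hamp2, 24.4 ± 4.56 for Slc40a1, 11.1 ± 1.05 for Hfe, 6.09 ± 2.09 for Tfrc and 2.11 ± 0.891 for Bmp6. Hamp ranged from 140 to 2173 CPM per kilobase and overlapped Fth1. Hamp2 ranged from 1.62 to 228 and overlapped all the others except Trf. The ranges of Tfr2 and Ftl1 overlapped, as did those of Tfrc and Bmp6.

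**Figure D2:**
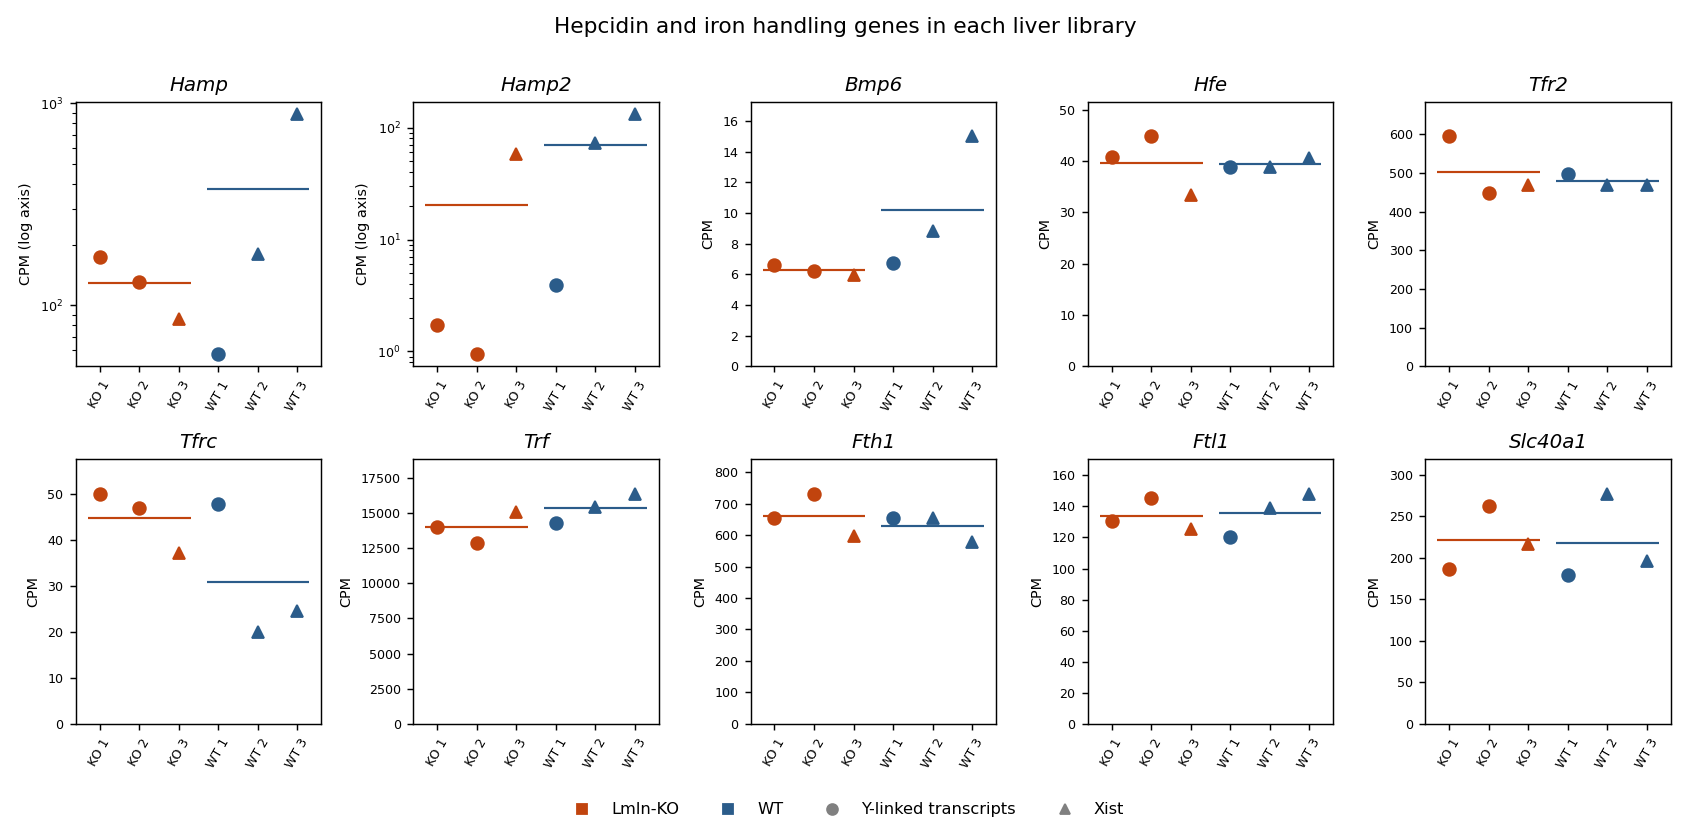
TMM-normalized CPM of the 10 genes in each library (log axis for Hamp and Hamp2), in Lmln-KO (KO, red) and WT (blue), with circles for libraries with Y-linked transcripts, triangles for those with Xist, and lines for group means. WT replicate 3 is the highest library for 5 of the 10 genes, and Hamp2 is high in the 3 triangles of both genotypes.

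Hamp (chromosome 7, 30942368 to 30944032, minus strand), the gene of the hormone, varied most between WT libraries. It measured 173, 131 and 85.4 CPM in Lmln-KO replicates 1, 2 and 3 and 57.4, 180 and 891 CPM in WT replicates 1, 2 and 3, with raw counts from 966 to 15470. WT replicate 3 stood 4.95-fold above the next library, and without it the groups covered the same range, with WT replicates 1 and 2 below and above all Lmln-KO libraries. The Lmln-KO libraries averaged 129.8 ± 44.0 CPM and the WT libraries 376 ± 450 CPM (SD, n = 3). The log2 fold change was -1.53 (SE 1.10, edgeR adjusted p = 0.933) and -0.63 (SE 1.87, edgeR adjusted p = 0.992) with the sex-marker term. Without WT replicate 3 it was 0.13. The sign also differed between the sets: Lmln-KO minus WT was 1.39 in log2 CPM in the Y-linked set and -2.23 in the Xist set. WT replicate 1 is the only WT library of the Y-linked set, and Lmln-KO replicate 3 the only Lmln-KO library of the Xist set. An interaction of set and genotype, fitted with those single libraries, gave 4.06 in log2 for Hamp and cannot separate a set from a library.

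Hamp2 (chromosome 7, 30922372 to 30924681, minus strand) encodes a second hepcidin that is not known to act on iron as the product of Hamp does. It measured 1.73, 0.945 and 58.5 CPM in Lmln-KO replicates 1, 2 and 3 and 3.92, 72.5 and 133 CPM in WT replicates 1, 2 and 3. The high libraries were the 3 with Xist, of both genotypes, and the lowest of them stood 14.9-fold above the highest of the others. In each set WT was above Lmln-KO, by -1.54 (Lmln-KO minus WT in log2 CPM) with Y-linked transcripts and -0.75 with Xist. The log2 fold change was -1.77 (SE 2.07, edgeR adjusted p = 0.936) on genotype alone and -1.05 (SE 0.372, edgeR adjusted p = 0.987, unadjusted p = 0.0381) with the sex-marker term. DESeq2 with the term gave an adjusted p of 0.158, the lowest for any of the 10 genes under any alternative. At an unadjusted p under 0.05 with the term, 1 of the 10 genes was lower (Hamp2) and 0 were higher, where edgeR put 2.65% of all tested genes lower and 4.34% in either direction.

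Hamp2 made up 0.987%, 0.718% and 40.7% of the counts of both hepcidin genes in Lmln-KO replicates 1, 2 and 3, and 6.395%, 28.7% and 13.01% in WT replicates 1, 2 and 3. The means were 14.1% ± 23.0 in Lmln-KO and 16.05% ± 11.5 in WT (SD, n = 3), a difference of -1.92 percentage points. An exact two-sided permutation test gave p = 0.8, where 3 against 3 cannot give less than 0.1, and 0.8 after adjustment over the 3 ratios tested. The difference was -5.54 points in the Y-linked set and 19.8 points in the Xist set. Reads were 36 bases long, and 28.8% of the 36-base stretches of Hamp exons also occur in Hamp2, so the split of counts between the genes is uncertain.

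The genes most like Hamp over the 6 libraries, by Pearson's r of log2 CPM among 13945 genes, were C430014B12Rik (r = 0.998), Lrriq3 (r = 0.991) and Glmp (r = 0.987). All were highest in WT replicate 3 and lowest or nearly so in WT replicate 1, but over a far smaller range: Glmp went from 40.1 to 50.0 CPM. Those most like Hamp2 were Nipal1 (r = 0.998), Gm9752 (r = 0.997) and Tcf24 (r = 0.997). Nipal1 measured 1.06, 0.567 and 47.2 CPM in Lmln-KO replicates 1, 2 and 3 and 2.85, 45.1 and 77.1 in WT replicates 1, 2 and 3, the order seen for Hamp2 except that WT replicate 2 lay below Lmln-KO replicate 3. High values over only 6 libraries were not confined to the genes named: of the 13945 genes, 47 had r above 0.95 with Hamp and 229 with Hamp2. The values of r describe shared highs in WT replicate 3 and in the Xist libraries.

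Bmp6 (chromosome 13, 38345107 to 38500302), the endothelial ligand that drives hepcidin transcription, was the 1 gene of the 10 whose groups did not overlap. That is near the share over all tested genes, 10.3% (5.73% lower, 4.61% higher). Bmp6 measured 6.63, 6.23 and 5.97 CPM in Lmln-KO replicates 1, 2 and 3 and 6.77, 8.83 and 15.03 CPM in WT replicates 1, 2 and 3. The Lmln-KO libraries lay close together and WT replicate 1 lay just above them, while WT replicate 3 stood 1.70-fold above the next library. Averages were 6.28 ± 0.332 CPM for the Lmln-KO libraries and 10.2 ± 4.30 CPM for the WT libraries (SD, n = 3). The log2 fold change was -0.70 (SE 0.279, edgeR adjusted p = 0.933, unadjusted p = 0.0366) and -0.55 (SE 0.288, edgeR adjusted p = 0.987, unadjusted p = 0.0949) with the sex-marker term. It was -0.31 without WT replicate 3. Within the sets the difference was -0.07 with Y-linked transcripts and -0.94 with Xist. Bmp6 shares 224 exon bases with the antisense gene Txndc5, which measured 140 to 223 CPM. Without strand, reads in those bases cannot be told apart, and whether they were counted for either gene was not examined. Markers of sinusoidal endothelial cells, the source of BMP6, summed to 470 to 586 CPM in Lmln-KO and 527 to 546 CPM in WT, with 0 of 8 markers at 0. Their part in the result was not tested, and in bulk liver fewer cells of a type and less RNA per cell cannot be told apart.

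Hfe and Tfr2, the membrane proteins through which hepatocytes sense iron-loaded transferrin, lay at like levels in both groups. Hfe (chromosome 13, 23702034 to 23710854) measured 40.8, 44.9 and 33.4 CPM in Lmln-KO replicates 1, 2 and 3 and 38.8, 38.8 and 40.5 CPM in WT replicates 1, 2 and 3. The log2 fold change of Hfe was 0.01 (SE 0.123, edgeR adjusted p = 0.993). The fit with the sex-marker term gave -0.05. Tfr2 (chromosome 5, 137569840 to 137587481) measured 596, 448 and 468 CPM in Lmln-KO replicates 1, 2 and 3 and 499, 470 and 470 CPM in WT replicates 1, 2 and 3, with only Lmln-KO replicate 1 above the rest. For Tfr2 the log2 fold change was 0.07 (SE 0.146, edgeR adjusted p = 0.963). The fit with the sex-marker term gave 0.03.

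The other genes of BMP and SMAD signalling upstream of hepcidin, a list of 17 with receptors, co-receptors, SMADs and inhibitors, had 16 tested members. 0 of 16 were called, 11 were positive and 5 negative, and their median log2 fold change was 0.07, also with the sex-marker term, against -0.00 over all tested genes in both fits. Acvr2b, a type II receptor, was 9.03 to 15.2 CPM in Lmln-KO and 8.12 to 9.03 CPM in WT, a log2 fold change of 0.40 (SE 0.214, edgeR adjusted p = 0.933). Smad5, a signal transducer, had 0.19 and Acvr2a, another type II receptor, 0.18, each with an edgeR adjusted p of 0.933.

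Some known targets of BMP and SMAD signalling other than hepcidin were highest in WT replicate 3, the library where Hamp, Hamp2 and Bmp6 were highest. Of 8 such genes, 4 were highest there by at least 2-fold over the next library, against 0.898% of all tested genes, and of the 10 iron genes 1 was (Hamp). Both the library and the 2-fold cut were chosen after the values were seen, so these shares are only a description. WT replicate 3 was the highest library for 23.7% of all tested genes. Id1, an inhibitor of DNA binding, measured 15.8 CPM there and 1.84 to 4.05 CPM in the other 5. Its relative Id4 measured 11.7 against 1.65 to 3.62 CPM, the inhibitory SMAD gene Smad7 71.6 against 19.7 to 31.9 CPM, and the transcription factor gene Atoh8 52.3 against 7.04 to 22.7 CPM. Id2, Id3, Smad6 and Bambi did not share this: Id3 was highest in Lmln-KO replicate 2 (65.3 CPM) and measured 39.0 CPM in WT replicate 3. Id1, Smad7 and Smad9 (39.0 CPM in WT replicate 3, 6.12 to 20.3 CPM elsewhere) are named here after their values were seen.

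By genotype, 0 of the 8 targets were called, 6 were negative and 2 positive. Their median log2 fold change was -0.47, and it was -0.28 with the sex-marker term and -0.11 without WT replicate 3, against -0.00 over all tested genes. Id4 had a log2 fold change of -1.38 (SE 0.580, edgeR adjusted p = 0.933) and Atoh8 -1.33 (SE 0.567, edgeR adjusted p = 0.933). Id3 had 0.81 (SE 0.484, edgeR adjusted p = 0.933). Summed lymphocyte markers were 27.4, 20.8 and 27.5 CPM in the Lmln-KO libraries and 30.2, 44.0 and 64.7 CPM in the WT libraries, so they were lower in all of Lmln-KO and highest in WT replicate 3. Most of each sum was Ptprc, a general leukocyte gene, at 24.2, 18.0 and 24.5 CPM in Lmln-KO and 26.0, 37.9 and 49.9 CPM in WT. The sums are thus not specific to lymphocytes. Of the 8 lymphocyte markers only 3 had enough counts to be tested, and 0 were called. All 3 were lower without overlap, against 5.73% of all tested genes, and at an edgeR unadjusted p under 0.05, against 3.14%. Their median log2 fold change was -1.58 (-1.29 with the sex-marker term, -0.86 without WT replicate 3). Stellate cell markers summed to 614 CPM in WT replicate 3 and to 354 to 548 CPM in the other 5 libraries. The part of these markers in the values of the BMP and SMAD targets was not tested.

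**Figure D3:**
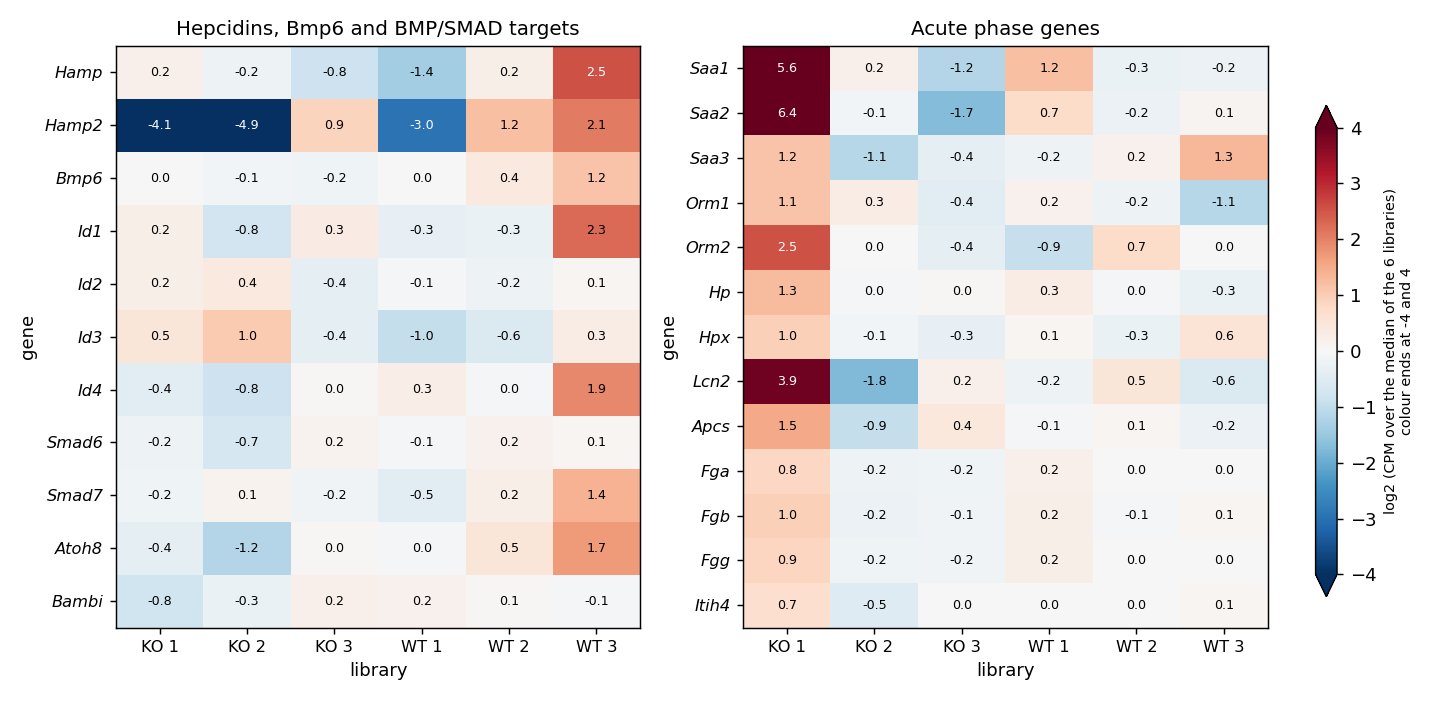
Log2 of CPM over the median of the 6 libraries, per gene (rows) and library (columns), for the hepcidins, Bmp6 and 8 BMP and SMAD targets (left) and for 13 acute phase genes (right), with colour ending at -4 and 4. WT replicate 3 is high on the left, with a median of 0.84 over the 8 targets, and Lmln-KO replicate 1 on the right, where 12 of the 13 genes are highest.

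Acute phase genes, markers of inflammation, were high in another library. Of 13 such genes, 12 were highest in Lmln-KO replicate 1, and 5 of them by at least 2-fold over the next library, against 0.144% of all tested genes. Lmln-KO replicate 1 and the 2-fold cut were also chosen after the values were seen. Saa1, a serum amyloid A gene, measured 788 CPM there and 7.33 to 38.2 CPM in the others. Saa2 measured 438 against 1.45 to 8.37 CPM, and Lcn2, which encodes a protein that captures bacterial iron carriers, 99.4 against 1.89 to 9.41 CPM. In that library Hamp stood at 173 CPM, below WT replicate 2 (180 CPM) and above the remaining Lmln-KO libraries. Both hepcidin promoters hold the STAT3 site TTCTTGGAA shown above. Hamp2 measured 1.73 CPM in Lmln-KO replicate 1, a library of the Y-linked set, where Hamp2 was low throughout (0.945 to 3.92 CPM). The part of the acute phase values in those of Hamp and Hamp2 was not tested.

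By genotype, 0 of 13 acute phase genes were called. Their median log2 fold change was 0.54. The sex-marker term made it 0.32, and it was -0.26 without Lmln-KO replicate 1, so 1 library set its sign. Of 9 genes of the interleukin-6 and STAT3 route, 8 were tested (Il6 was not) and 0 were called, with a median of 0.03 (0.06 with the term). Socs3, a feedback inhibitor that STAT3 induces, measured 21.5, 16.3 and 6.22 CPM in Lmln-KO replicates 1, 2 and 3 and 10.7, 7.33 and 5.70 CPM in WT replicates 1, 2 and 3. Socs3 had a log2 fold change of 0.89 (SE 0.487, edgeR adjusted p = 0.933) on genotype alone and 0.40 with the term. Every library of the Y-linked set was above every library of the Xist set, and Lmln-KO minus WT was 0.80 in log2 CPM in the Y-linked set and -0.05 in the Xist set. Cebpa, a transcription factor gene needed for hepcidin expression, had 0.32 (SE 0.182, edgeR adjusted p = 0.933) without overlap of the groups, against 4.61% of all tested genes higher in that way.

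Tfrc (chromosome 16, 32608920 to 32632794), the receptor that takes up iron-loaded transferrin, measured 50.0, 47.0 and 37.1 CPM in Lmln-KO replicates 1, 2 and 3 and 47.8, 19.8 and 24.5 CPM in WT replicates 1, 2 and 3. The low libraries were WT replicates 2 and 3, and WT replicate 1 lay within the Lmln-KO range, so the groups overlapped. Averages were 44.7 ± 6.71 CPM for the Lmln-KO libraries and 30.7 ± 14.99 CPM for the WT libraries (SD, n = 3). The log2 fold change was 0.54 (SE 0.345, edgeR adjusted p = 0.933) and 0.38 (SE 0.166, edgeR adjusted p = 0.987, unadjusted p = 0.0534) with the sex-marker term. Within the sets Lmln-KO minus WT was 0.02 in log2 CPM with Y-linked transcripts and 0.75 with Xist. The interaction of set and genotype, which also rests on single libraries, was -0.73 in log2. Tfrc lies on the same chromosome as Lmln, which spans 33062521 to 33127695, and 0 of its 36-base stretches occur in other genes of the table.

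Trf (chromosome 9, 103204001 to 103230444), the plasma iron carrier made by hepatocytes, was the most abundant of the 10. Trf measured 14020, 12888 and 15025 CPM in Lmln-KO replicates 1, 2 and 3 and 14255, 15423 and 16356 CPM in WT replicates 1, 2 and 3, so the groups overlapped. Its log2 fold change was -0.13 (SE 0.172, edgeR adjusted p = 0.936). The fit with the sex-marker term gave -0.08.

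The ferritin genes differed little between the groups. Fth1 (chromosome 19, 9980598 to 9985098), the heavy chain that oxidises iron for storage, measured 655, 731 and 598 CPM in Lmln-KO replicates 1, 2 and 3 and 655, 655 and 578 CPM in WT replicates 1, 2 and 3. Between the groups Fth1 differed by 0.07 on the log2 scale (SE 0.137, edgeR adjusted p = 0.961). The fit with the sex-marker term gave 0.02. Ftl1 (chromosome 7, 45457944 to 45459884), the light chain, measured 130, 146 and 125 CPM in Lmln-KO replicates 1, 2 and 3 and 120, 139 and 148 CPM in WT replicates 1, 2 and 3. The log2 fold change of Ftl1 was -0.02 (SE 0.121, edgeR adjusted p = 0.987). The fit with the sex-marker term gave -0.00045. The Ftl1 level is uncertain, since 62.6% of its 36-base stretches occur in other genes of the table and the pseudogene Ftl1-ps1 had 78.3% to 90.4% as many counts as Ftl1.

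The ratio of light to heavy chain, in counts per kilobase, was 0.515, 0.515 and 0.542 in Lmln-KO replicates 1, 2 and 3 and 0.476, 0.549 and 0.663 in WT replicates 1, 2 and 3. The level of this ratio depends on the exon lengths used and on the uncertain Ftl1 level. The difference of mean log2 ratios was -0.09 (exact two-sided permutation p = 0.7, 0.8 after adjustment over 3 ratios). Its sign differed between the sets, with 0.12 in the Y-linked set and -0.15 in the Xist set. The ratio of Tfrc to the summed ferritins, which compares uptake with storage, was 0.0282, 0.0238 and 0.0226 in Lmln-KO replicates 1, 2 and 3 and 0.0277, 0.0110 and 0.0143 in WT replicates 1, 2 and 3. Its mean log2 difference was 0.60 (exact two-sided permutation p = 0.3, 0.8 after adjustment over 3 ratios), with -0.10 in the Y-linked set and 0.85 in the Xist set. As for Tfrc itself, WT replicates 2 and 3 were the low libraries.

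**Figure D4:**
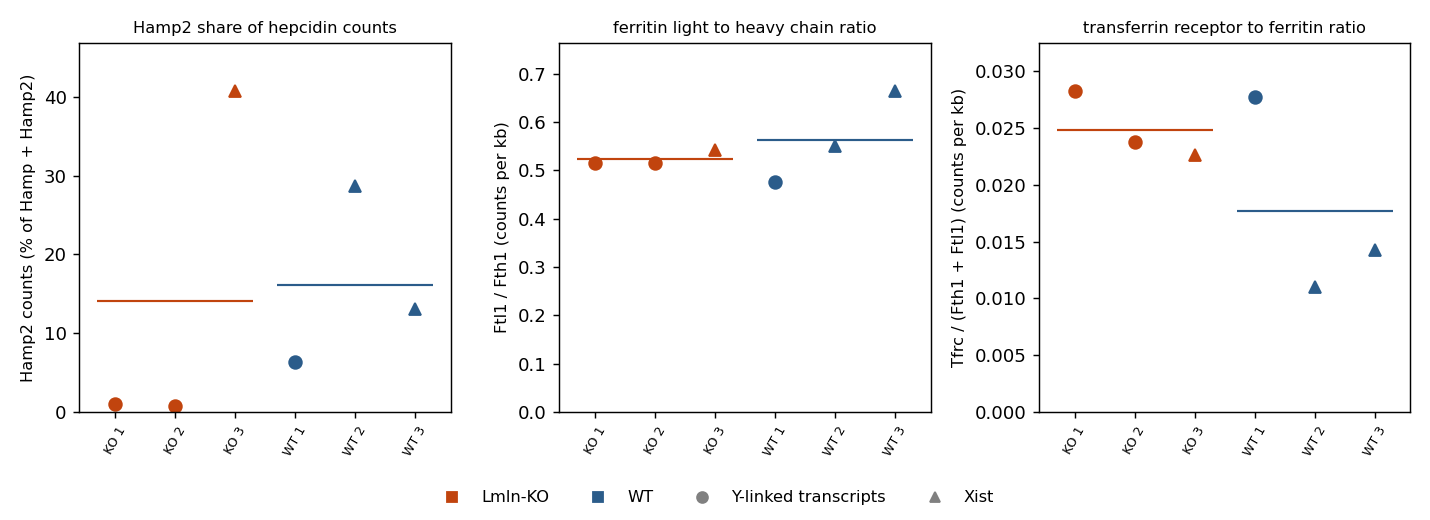
Hamp2 counts in percent of both hepcidin genes (left), the Ftl1 to Fth1 ratio (middle) and the Tfrc to ferritin ratio (right) per library, the ratios in counts per kilobase, with lines for group means, red for Lmln-KO, blue for WT, circles for Y-linked transcripts and triangles for Xist. The Hamp2 share is highest in Lmln-KO replicate 3 (40.7%) and the Tfrc ratio lowest in WT replicate 2 (0.0110).

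Slc40a1 (chromosome 1, 45908068 to 45926523), which encodes ferroportin, the target of hepcidin, measured 186, 262 and 217 CPM in Lmln-KO replicates 1, 2 and 3 and 179, 277 and 196 CPM in WT replicates 1, 2 and 3. The spread within each group was far larger than the difference between them. Between the groups it differed by 0.03 on the log2 scale (SE 0.197, edgeR adjusted p = 0.991). The fit with the sex-marker term gave 0.10. In WT replicate 3, where Hamp was highest, Slc40a1 stood at 196 CPM, between the values of the other WT libraries. Hepcidin acts on the ferroportin protein, which was not measured. Kupffer cells, the liver macrophages that export much iron, had summed markers of 248 to 294 CPM in Lmln-KO and 264 to 362 CPM in WT, with 0 of 8 at 0. Their marker Adgre1 measured 21.6, 19.5 and 19.1 CPM in Lmln-KO replicates 1, 2 and 3 and 31.1, 29.0 and 25.7 CPM in WT replicates 1, 2 and 3, a log2 fold change of -0.51 (SE 0.112, edgeR adjusted p = 0.933). Of the 8 markers only Adgre1 had groups without overlap, against 5.73% of all tested genes lower in that way, and 0 were called. Log2 fold changes were negative for 7 and positive for 1, with a median of -0.13 (-0.12 with the sex-marker term).

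Among 18 other genes of iron transport and storage, 16 were tested (Cybrd1 and Ftmt were not) and 0 were called, with 7 positive, 9 negative and a median log2 fold change of -0.01 in both fits. Pcbp2, an iron chaperone, had -0.16 (edgeR adjusted p = 0.933) and Slc25a37, which carries iron into mitochondria, 0.33 (edgeR adjusted p = 0.933). Scara5, a receptor for ferritin, measured 32.2, 9.02 and 0.128 CPM in Lmln-KO replicates 1, 2 and 3 and 13.6, 0.107 and 0.115 CPM in WT replicates 1, 2 and 3. It was low in the 3 Xist libraries, the reverse of Hamp2, and is named after its values were seen. For the iron regulatory protein genes and a regulator, log2 fold changes were 0.11 for Aco1, 0.12 for Ireb2 and -0.14 for Fbxl5, which marks the Ireb2 product for degradation (edgeR adjusted p of 0.936, 0.936 and 0.933). Their median was 0.11, and 0.04 with the sex-marker term.

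Of 18 genes of heme synthesis, scavenging and breakdown, 0 were called, 13 were positive and 5 negative, with a median of 0.11 (0.08 with the sex-marker term), and 4 were higher in every Lmln-KO library than in every WT library, against 4.61% of all tested genes. Alad, which joins the first heme precursors, measured 111, 101 and 115 CPM in Lmln-KO replicates 1, 2 and 3 and 99.5, 88.5 and 82.9 CPM in WT replicates 1, 2 and 3. Its log2 fold change was 0.27 (SE 0.112, edgeR adjusted p = 0.933, unadjusted p = 0.0394). Urod, a later enzyme of the pathway, had 0.22 and Slc46a1, a heme and folate carrier, 0.21, each with an edgeR adjusted p of 0.933. Alas2, the erythroid enzyme that starts the pathway, was on the list of erythroid markers. It measured 97.1, 125 and 10.9 CPM in Lmln-KO replicates 1, 2 and 3 and 98.2, 14.2 and 14.7 CPM in WT replicates 1, 2 and 3. Alas2 was low in the Xist libraries of both genotypes, a split not seen in the globin genes, where the sets overlapped. Of these, Hbb-bs measured 52.5, 103 and 69.0 CPM in Lmln-KO replicates 1, 2 and 3 and 89.0, 82.8 and 45.1 CPM in WT replicates 1, 2 and 3. Summed erythroid markers were 110 to 277 CPM in Lmln-KO and 82.9 to 229 CPM in WT. These sums include Alas2, so its split enters them.

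Of 10 genes of iron-sulfur cluster assembly, 0 were called, 7 were positive and 3 negative, with a median of 0.06 (-0.02 with the sex-marker term). Lyrm4, a subunit of the complex that supplies sulfur, measured 4.52, 6.05 and 5.50 CPM in Lmln-KO replicates 1, 2 and 3 and 6.77, 9.90 and 9.04 CPM in WT replicates 1, 2 and 3. Its log2 fold change was -0.68 (SE 0.199, edgeR adjusted p = 0.933, unadjusted p = 0.00921). Hscb, a co-chaperone of the assembly, had -0.53 (SE 0.275, edgeR adjusted p = 0.933). Both were lower in every Lmln-KO library than in every WT library, as 5.73% of all tested genes were.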

How the data were processed

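Whole-liver RNA was sequenced after ribosomal RNA depletion as 36-base pairs, as the labels' protocols state. The values deposited are raw counts per gene name that the authors made with featureCounts 2.0.1 on Ensembl release 102 exons of GRCm38, per the file headers. The submitters' processing notes also name Subread 2.0.2 and edgeR 3.36.0. The header's command gives no option for pairs, strand or multi-mapping reads, and no source used here names the aligner.

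Counts of all 6 libraries (17388360 to 22494696) were fitted by genotype in edgeR 4.0.16 (R 4.3.3): TMM, filterByExpr with a minimum count of 10 (18703 genes, 99.8% of counts), robust quasi-likelihood, Benjamini-Hochberg at 0.05. SE is the absolute log2 fold change over the square root of F. Values within a set are differences of log2 CPM with a prior count of 2. Alternatives were other scalings, filters, DESeq2 1.42.0, limma-voom 3.58.1, the replicate number as a block, the sex-marker term (Xist above or below summed Y-linked genes) and leaving out each library. The steps were tested on simulated counts. No libraries were alike within counting noise (lowest ratio of chi-square to its degrees of freedom, 12.3), so each was 1 replicate. The sequence patterns were searched with Biopython 1.88.

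The genes and lists were chosen with earlier results of these data known. Named are all 10 genes, Lmln, up to 3 genes per list with the smallest p, and the 3 most like Hamp and Hamp2 (average log2 CPM of at least 1). Others are said to be chosen after their values were seen. The result of 1 listed marker is not reported here.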

Additional observations from a re-analysis of the deposited data

How the results depend on the processing

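None of the 10 iron genes was called under any of the 15 planned and 6 added alternatives. Over all genes, 0 were called by genotype with edgeR, 24 with DESeq2, 3 without a filter on low counts, 1 with the sex-marker term and 31 with that term in DESeq2, and 0 to 3 when 1 library was left out (3 without WT replicate 1). Replicate numbers did not pair the libraries (correlations of same-numbered deviations 0.465, -0.311 and 0.405). The replicate block gave 1 gene called and 0 iron genes. Under it the log2 fold change was -0.68 for Hamp, -2.56 for Hamp2, 0.63 for Tfrc and -0.63 for Bmp6.

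Leaving out 1 library in turn gave log2 fold changes of -2.04 to 0.13 for Hamp, -5.69 to -0.90 for Hamp2, -0.92 to -0.31 for Bmp6, 0.31 to 1.01 for Tfrc, -0.086 to 0.13 for Hfe, -0.060 to 0.15 for Tfr2, -0.18 to -0.079 for Trf, -0.0064 to 0.15 for Fth1, -0.10 to 0.045 for Ftl1 and -0.11 to 0.24 for Slc40a1. With the sex-marker term, chosen with leave-one-out after seeing the data, they were -2.65 to 1.41 for Hamp, -1.54 to -0.75 for Hamp2, -0.995 to -0.069 for Bmp6, 0.024 to 0.75 for Tfrc, -0.25 to 0.15 for Hfe, -0.064 to 0.11 for Tfr2, -0.10 to -0.056 for Trf, -0.044 to 0.086 for Fth1, -0.20 to 0.20 for Ftl1 and -0.13 to 0.33 for Slc40a1. In those fits the sign also turned for Hamp without WT replicate 3 (0.28), Hfe without Lmln-KO replicate 1 (-0.045) or 2 (-0.11) and WT replicate 2 (-0.041) or 3 (-0.013), Tfr2 without WT replicate 1 (-0.0043), Fth1 without Lmln-KO replicate 2 (-0.025) and WT replicate 3 (-0.0099), Ftl1 without Lmln-KO replicate 1 (0.012) and WT replicate 2 (0.0051) or 3 (0.047), and Slc40a1 without Lmln-KO replicate 2 (-0.048). Hfe, at 0.01, changed sign under upper-quartile scaling (-0.017), limma-voom (-0.00080), a minimum count of 50 (-0.0030), the sex-marker term (-0.053) and that term in DESeq2 (-0.044), and Ftl1 under the last (0.0085).

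Leaving out 1 library gave -15.2 to 4.79 percentage points for the Hamp2 share, and 7.13 was the mean within sets. It gave -0.20 to 0.036 for the log2 ratio of light to heavy chain and 0.31 to 0.98 for that of Tfrc to ferritin. Ferritin pseudogene counts, added after seeing the data, moved these to -0.13 and 0.63. The cause of these changes was not tested. Bmp6, at 114 to 261 counts per library, had the fewest counts of the 10 genes in sum over the libraries, and Hamp2, at 20 to 2313, had the fewest in a single library.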
